A study of Rattus norvegicus with 27 samples.

Results

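Chromosome 13 of the Dahl salt-sensitive (SS) rat was followed as 1 set of CpG positions in DNA of the renal outer medulla, the kidney layer that holds the medullary thick ascending limbs. A position was kept where every library of its table had 10 or more reads, which gave 14686 of 484749 such positions (common sites) in the first of 2 deposited tables and 38461 of 1219703 in the second. Bins of 500 bp were counted from the first base of the chromosome. Those with 3 or more common sites numbered 1657 of 50578 (first table) and 4355 of 127106 (second table). The tables list 96331 and 192630 positions of the chromosome in build rn5, from base 79505 to 118717320 in the first and from base 51208 to 118717560 in the second.

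The assay was reduced representation bisulfite sequencing (RRBS): a restriction digest and size selection enrich CpG-rich fragments, and bisulfite turns unmethylated cytosine to T in the reads while methylated cytosine stays C. Levels are given as the percentage of C among the C and T counts that a rat has at a site. All 27 libraries came from individual rats of the SS strain, in 7 groups. In the first table MCW_HS rats (n = 4) came from the colony labelled MCW and ate AIN-76A, a purified diet, with NaCl at 4% during 14 days that began at 6 weeks of age. MCW_LS rats (n = 3) of that colony stayed on AIN-76A with 0.4% NaCl until 8 weeks. CRL_HS rats (n = 4) of the colony labelled CRL had the high-salt regimen of MCW_HS. CRL_LS rats (n = 4) ate 5L2F with 0.75% NaCl until 8 weeks, so the CRL groups differ in kind of diet as well as in salt. In the second table, all from MCW SS rats, HS_DT rats (n = 4) received GapmeRs, which are antisense oligonucleotides, against Dnmt3a and Tet3 into the kidney at 2 mg/kg each, and 4% NaCl with its time given as 7 without a unit. In HS_SCR rats (n = 4) a scrambled GapmeR was given at 4 mg/kg, with 4% NaCl for 7 days. PRE_LS rats (n = 4) were surgically prepared on 0.4% NaCl and sampled before treatment. Tissue pieces hold many cell types, so a changed level and a changed mixture of cells cannot be told apart here, and the tables hold no measure of Dnmt3a or Tet3.

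Chromosome 13 is known for its effect on blood pressure in this strain: consomic SS rats that carry the Brown Norway chromosome have a blunted rise in pressure on a high-salt diet. It holds Fh, which encodes fumarase of the citric acid cycle. In mammals, CpG islands at gene starts are usually unmethylated, while scattered CpGs outside islands are mostly methylated. Dnmt3a is a de novo methyltransferase and Tet3 oxidises methylcytosine on the way to demethylation. All rats studied here carried the SS chromosome, so the comparisons concern diet, colony and GapmeR and not the consomic exchange.

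Promoters of 5 chromosome 13 genes show the range of levels described below, from methylated through intermediate to unmethylated. Each line gives the 250 bases before the RefSeq gene start on the gene's strand in build GRCr8. Capital CG marks a CpG measured as a common site in either table.
Mael: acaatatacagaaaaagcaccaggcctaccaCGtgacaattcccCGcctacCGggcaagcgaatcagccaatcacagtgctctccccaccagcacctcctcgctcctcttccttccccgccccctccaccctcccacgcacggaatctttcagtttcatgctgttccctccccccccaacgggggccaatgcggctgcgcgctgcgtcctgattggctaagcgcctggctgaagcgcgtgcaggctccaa
Slamf8: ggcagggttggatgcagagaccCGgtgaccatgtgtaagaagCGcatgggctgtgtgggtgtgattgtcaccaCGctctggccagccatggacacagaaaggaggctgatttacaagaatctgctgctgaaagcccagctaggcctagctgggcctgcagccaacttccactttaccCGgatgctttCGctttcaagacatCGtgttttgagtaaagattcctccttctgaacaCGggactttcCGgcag
Uhmk1: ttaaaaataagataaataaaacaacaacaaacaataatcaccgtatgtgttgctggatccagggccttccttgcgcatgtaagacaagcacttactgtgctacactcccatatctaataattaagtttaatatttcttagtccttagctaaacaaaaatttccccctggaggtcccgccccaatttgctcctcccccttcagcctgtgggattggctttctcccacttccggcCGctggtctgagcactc
Fh: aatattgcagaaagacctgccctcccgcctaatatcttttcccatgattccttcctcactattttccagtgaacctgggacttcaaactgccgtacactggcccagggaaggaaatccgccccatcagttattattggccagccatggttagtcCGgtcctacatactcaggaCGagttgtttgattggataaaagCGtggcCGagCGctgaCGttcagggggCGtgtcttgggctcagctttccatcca
Kcnj10: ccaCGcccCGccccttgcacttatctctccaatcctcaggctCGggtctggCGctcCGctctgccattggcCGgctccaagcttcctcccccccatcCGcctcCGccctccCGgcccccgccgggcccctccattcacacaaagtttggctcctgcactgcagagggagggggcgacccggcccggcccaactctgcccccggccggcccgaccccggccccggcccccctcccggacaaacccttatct
Mael encodes a germ-line protein of transposon silencing, and its stretch lies at chr13:81029624-81029873 on the minus strand. Slamf8, a cell surface receptor of myeloid cells, has its stretch at chr13:87589561-87589810, also minus. Uhmk1, a kinase of splicing and cell cycle proteins, lies at chr13:84949062-84949311, minus. Fh lies at chr13:90082451-90082700, minus. Kcnj10, the gene of a basolateral potassium channel of the distal nephron, lies at chr13:87334260-87334509 on the plus strand. The stretches hold 16, 8, 5, 10 and 20 CpGs in this order, of which 3, 8, 1, 7 and 9 were measured, so the Slamf8 stretch is fully covered and the others in part. The levels below are means over up to 4, 8, 7, 14 and 9 measured CpGs of the whole promoter in this order, which runs 50 bases past the gene start, so those of Uhmk1 and Fh rest mostly or in equal part on CpGs outside the printed stretch.

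With each site counted equally, chromosome 13 had the highest mean level of the 20 autosomes in both tables. Its common sites averaged 28.8% ± 0.173 (SD, 15 rats) in the first table and 34.5% ± 0.193 (SD, 12 rats) in the second, against 23.0% ± 0.199 and 29.1% ± 0.192 for the other autosomes together. The next highest autosomes were chromosome 2 at 26.6% ± 0.188 in the first table and chromosome 12 at 32.8% ± 0.235 in the second, and the lowest in both was chromosome 10, at 18.5% ± 0.164 and 24.8% ± 0.192. Within each rat the excess of chromosome 13 over the other autosomes was 5.82 points on average in the first table (lowest 5.57, highest 5.96, higher in 15 of 15 rats). In the second it was 5.39 points (lowest 5.32, highest 5.45, higher in 12 of 12 rats). All rats of a table share the same sites, so these ranges describe the rats and not a sampling of chromosomes, and no test was made of the excess.

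**Figure D1:**
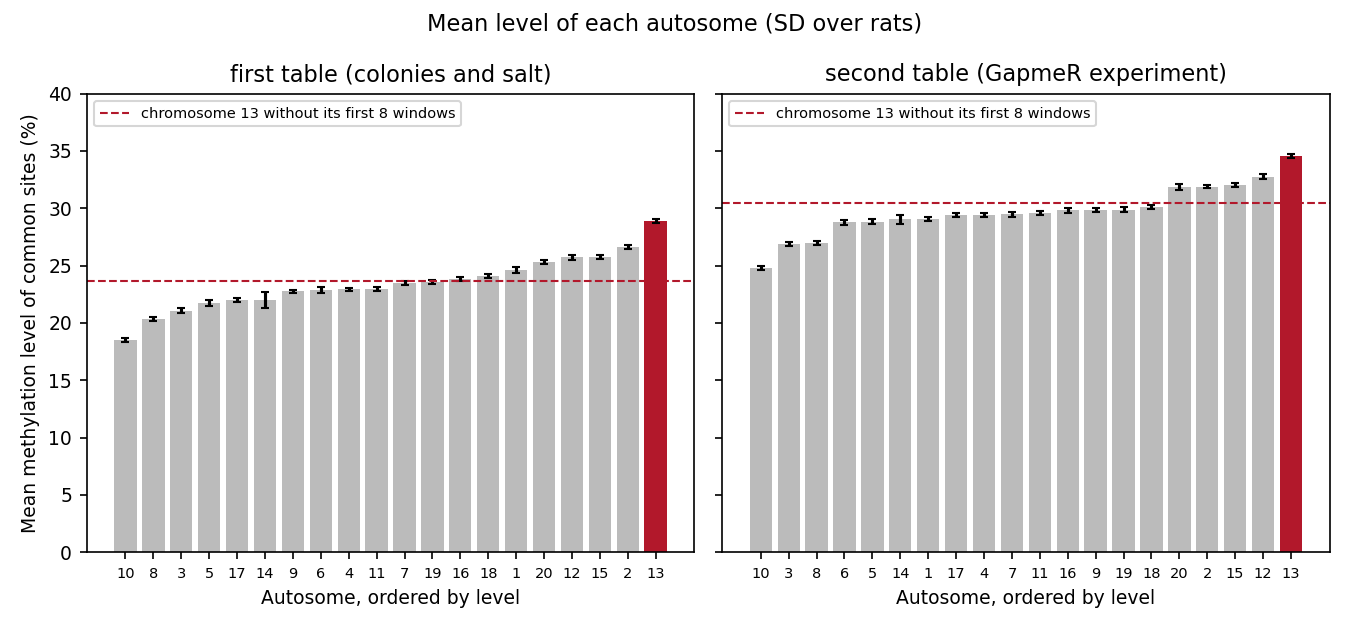
Mean methylation level (%) of the common sites of each autosome, ordered by level, with bars for the mean over rats and whiskers for the SD (15 rats left, 12 rats right). Chromosome 13 (red) is the last bar in both tables, at 28.8% and 34.5%, and the dashed line shows its level without the first 8 windows of 5 Mb, 23.7% and 30.5%. The other autosomes are shown whole.

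CpG density of the measured sites differed between chromosome 13 and the other autosomes, and its part in the excess was not tested. Sites in bins with 20 or more common sites, where levels are near 0, made up 24.7% of the chromosome 13 sites in the first table, against 30.7% on the other autosomes, and 29.7% against 36.6% in the second. Within that dense class chromosome 13 stood at 1.94% ± 0.0957 and 2.61% ± 0.0314, against 2.21% ± 0.225 and 2.70% ± 0.0764 on the other autosomes. In bins with 3 to 9 common sites it stood at 45.7% ± 0.277 and 55.2% ± 0.320, against 41.2% ± 0.250 and 52.4% ± 0.334. With the other autosomes reweighted to the chromosome 13 shares of these density classes, the excess was 2.59 points (first table) and 2.05 (second table), still in 15 of 15 and 12 of 12 rats. Counted by level, 59.3% of chromosome 13 sites lay under 20% and 19.1% over 80% in the first table, against 67.4% and 14.3% on the other autosomes. In the second table the shares were 52.3% and 22.9%, against 59.1% and 18.4%.

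Along the chromosome the level fell into a methylated first stretch and a remainder that was lower on average. The remainder was not low throughout: the interval chr13:65834225-72576401, given below with Ptgs2, was also methylated. The first 40 Mb, windows 1 to 8 of 5 Mb, averaged 57.6% ± 0.307 (SD, 15 rats) over 2229 sites in the first table, against 23.7% ± 0.184 over the other 12457 sites. In the second table they averaged 59.2% ± 0.227 (SD, 12 rats) over 5448 sites, against 30.5% ± 0.192 over 33013. The limit at 40 Mb was drawn after the levels were seen. Without these 8 windows the excess over the other autosomes was 0.667 points (first table) and 1.32 (second table), and chromosome 13 ranked 13 and 16 of the 20 autosomes from the lowest. The other autosomes were kept whole. Leaving out a methylated stretch of chromosome 13 alone must lower its level and can only lower its rank, so these values describe the stretch and test nothing.

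The 3 windows with the highest level were the same in both tables. Window 3 (chr13:10000001-15000000, rn5) stood at 74.5% ± 0.83 and 71.5% ± 0.455, the highest of all 537 and 538 autosomal windows with 50 or more common sites. Window 6 stood at 72.7% ± 0.649 and 71.3% ± 0.404, and window 1 at 70.1% ± 0.646 and 69.4% ± 0.302. The median of all autosomal windows was 24.0% (first table) and 30.9% (second table), and their 95th percentile was 51.8% and 53.5%. Inside the methylated stretch, window 7 (chr13:30000001-35000000) stood apart at 31.0% ± 0.343 and 38.2% ± 0.204. It held 7 of the 10 promoters placed in the first 40 Mb, and 24.6% and 29.4% of its sites lay in bins of 20 or more, against none in windows 1 to 4 in either table. The highly methylated window 6 also had such sites, 15.7% (first table) and 10.6% (second table). Windows 5 and 8 had none in the first table and 7.28% and 7.39% in the second.

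The lowest window in both tables was window 21 (chr13:100000001-105000000), at 16.4% ± 0.172 in the first and 25.4% ± 0.196 in the second. Next were windows 16 (18.6% ± 0.257) and 19 (20.1% ± 0.465) in the first table, and windows 20 (25.6% ± 0.165) and 16 (26.4% ± 0.240) in the second. Windows 16, 19 and 21 held 28, 25 and 28 placed promoters, and window 20 held 15. Of the sites of windows 16, 19, 20 and 21, 26.6 to 38.7% (first table) and 32.9 to 38.9% (second table) lay in bins of 20 or more, against 8.61% and 10.9% of the sites in the first 40 Mb. In bins with 3 to 9 common sites the first 40 Mb stood at 66.1% ± 0.291 and 67.3% ± 0.245, against 39.9% ± 0.321 and 52.6% ± 0.341 in the rest of the chromosome.

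**Figure D2:**
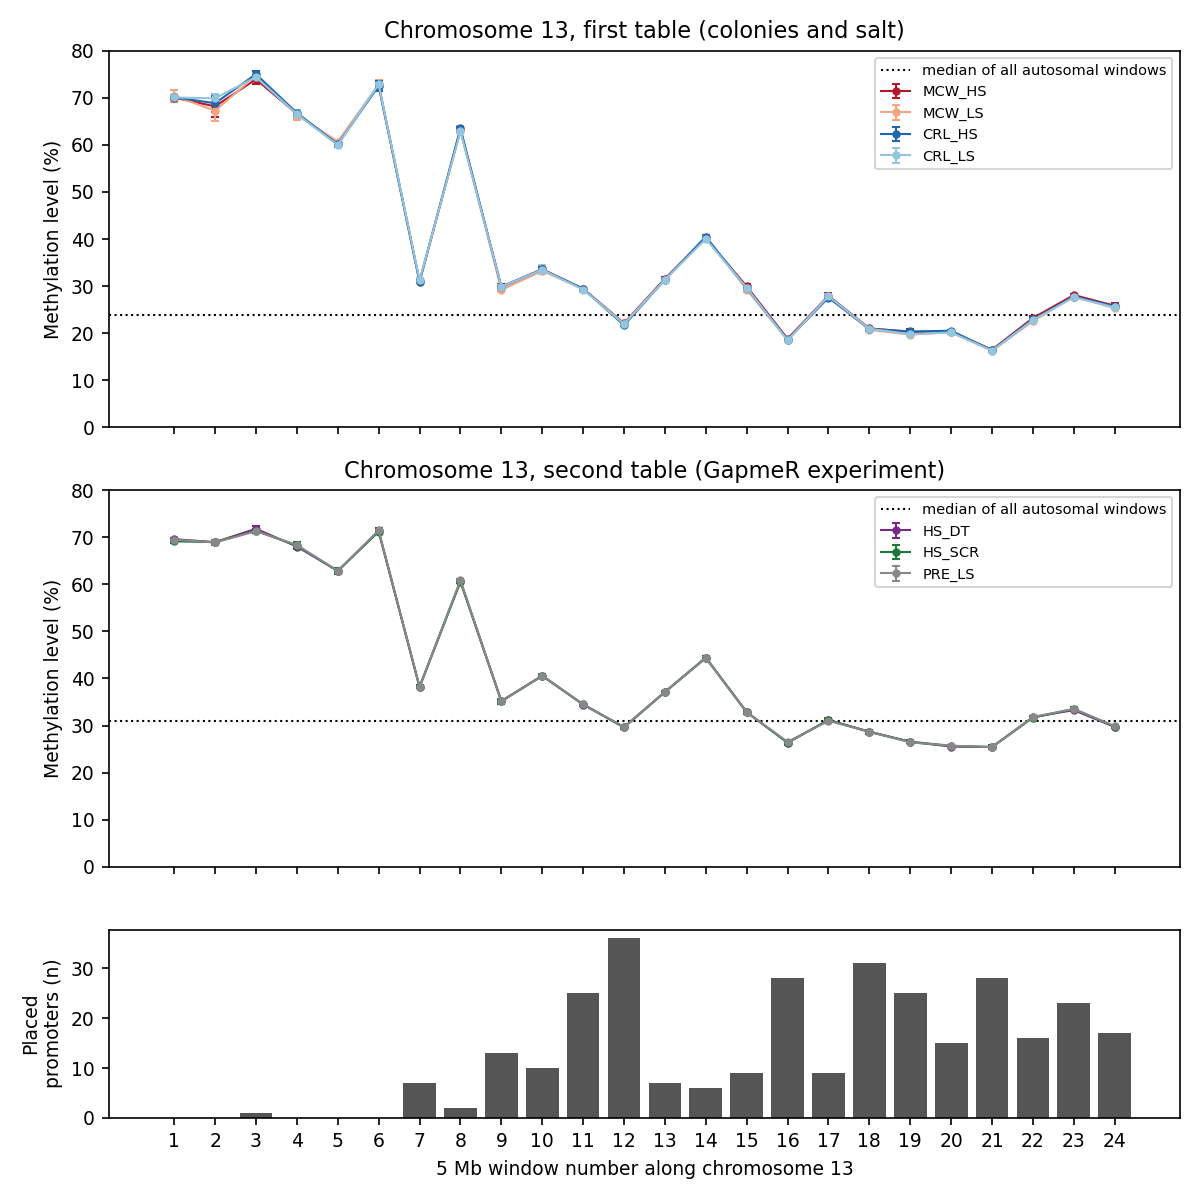
Mean methylation level (%) of common sites in the 24 windows of 5 Mb along chromosome 13, with 1 line per group and the SD over the rats of a group, above the number of promoters placed in each window. The group lines lie on each other at this scale: window 3 is highest at 74.5% and 71.5%, window 21 lowest at 16.4% and 25.4%, and the dotted line is the median of all autosomal windows.

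By group, the first 40 Mb averaged 57.6% ± 0.332 in MCW_HS, 57.7% ± 0.530 in MCW_LS, 57.7% ± 0.299 in CRL_HS and 57.7% ± 0.202 in CRL_LS, and 59.2% ± 0.107 in HS_DT, 59.1% ± 0.394 in HS_SCR and 59.2% ± 0.102 in PRE_LS. Single windows differed by more. In window 2, with 76 common sites in the first table, the means were 68.2% ± 2.21 in MCW_HS, 67.3% ± 2.14 in MCW_LS, 68.9% ± 1.84 in CRL_HS and 69.9% ± 0.979 in CRL_LS. There MCW_LS minus CRL_LS was -2.62 points and the MCW salt effect minus the CRL salt effect 1.96 points, the widest window differences of chromosome 13 in any of the 10 comparisons. The smallest adjusted p of a chromosome 13 window in these 2 comparisons was 0.784 and 0.886 (limma over all windows). In the second table the window differences ran from -0.344 to 0.501 points. Over both tables, 13965 sites were shared, which is 95.1% of the chromosome 13 sites of the first table and 36.3% of those of the second. At these sites MCW_LS averaged 28.6% (rats from 28.4 to 28.8%) and PRE_LS, also MCW rats on 0.4% salt, 28.5% (28.3 to 28.6%), and the group means lay within 10 points of each other at 92.2% of the sites. The 2 experiments were separate and their tables were not tested against each other.

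Placed promoters of the chromosome were almost all unmethylated. Of 1070 chromosome 13 promoters in the RefSeq table (GRCr8), 308 of 281 genes could be placed on rn5 by an exact match of the spacing of 8 or more CpGs in a promoter of 300 bases. Genome-wide, 99.1% of the 10072 placed promoters fell on the chromosome that RefSeq gives. With copies at the same place counted once and 3 or more common sites, a level was available for 150 promoters of the first table and 238 of the second. The rule needs many CpGs, so CpG-poor promoters are not among them. The median level was 0.256% (first table) and 0.0704% (second table), and 146 of 150 and 227 of 238 promoters lay under 5%.

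In a list of 84 genes grouped by role, a promoter level was available for 42 (first table) and 68 (second table). Outside immune and germ-line genes all promoters of the list lay under 5%. Over all placed promoters the share was 97.3% (first table) and 95.4% (second table), so no role is read as standing apart. Most promoters over 5% in the second table belong to genes outside the list. Ion and solute transport held 10 promoters in the second table, all under 5%, among them Kcnj10 at 0.622% ± 0.635 (SD, 12 rats), Kcnk2, a background potassium channel, at 1.65% ± 1.25, and Slc30a1, a zinc exporter, at 0.0506% ± 0.0363. All 6 promoters of energy metabolism lay under 5%, with Fh at 0.0386% ± 0.114 and Sdhc, a subunit of succinate dehydrogenase, at 0.0354% ± 0.0571. Signalling in vessels and kidney held 8 promoters under 5%, with Tgfb2, a growth factor of fibrosis and development, at 0.192% ± 0.226 and Rgs16, a regulator of G-protein signalling, at 0.0593% ± 0.0878. The 13 promoters of transcription factors were all under 5%, the highest being En1, a homeobox gene of brain and limb development, at 2.05% ± 0.363, with Esrrg, an orphan nuclear receptor of oxidative tissues, at 0.872% ± 0.398 at the first of its starts. Chromatin and DNA repair (8 promoters), cell cycle (7) and matrix, junctions and cytoskeleton (9, among them the laminin gene Lamc1 at 0.0354% ± 0.0416) were also all under 5%. In the first table every promoter of these groups lay under 5% too.

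Among immune genes 8 of 9 promoters lay under 5% in the second table, including Cxcr4, a chemokine receptor, at 0.0698% ± 0.116 and Cd55, a complement regulator, at 0.120% ± 0.162. The exception was Slamf8, printed above. Its promoter stood at 27.9, 25.1, 28.9 and 31.2% in HS_DT, 24.9, 22.3, 27.6 and 26.0% in HS_SCR and 33.8, 30.4, 22.2 and 33.0% in PRE_LS, so the 3 groups overlap. In the first table, over 5 of its 8 CpGs and fewer reads, it stood at 17.5, 43.4, 32.3 and 38.7% in MCW_HS, 42.3, 29.7 and 12.8% in MCW_LS, 54.9, 24.1, 56.7 and 24.0% in CRL_HS and 26.2, 43.9, 28.4 and 66.2% in CRL_LS. These 4 groups overlap too, and the rats of each spread widely: the SD over all 15 rats was 15.2 points, against 3.85 points over the 12 rats of the second table. Median depth at these sites was 32 reads, against 95.5 in the second table.

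The germ-line gene Mael was methylated and the sperm gene Catspere, a subunit of a calcium channel, was not, at 0.0338% ± 0.0430. The Mael promoter stood at 70.7, 69.4, 74.2 and 72.3% in HS_DT, 72.3, 75.9, 71.8 and 71.5% in HS_SCR and 73.7, 74.3, 64.9 and 65.3% in PRE_LS. The groups overlap, with the lowest rats in PRE_LS. The bin chr13:89326001-89326500 (rn5) that overlaps this promoter had the second largest SD over rats, 11.3 points, among bins with 5 or more common sites in the first table: 74.4, 64.2, 76.7 and 73.9% in MCW_HS, 97.2, 78.2 and 81.6% in MCW_LS, 88.8, 48.5, 86.8 and 79.8% in CRL_HS and 83.9, 76.1, 67.8 and 78.7% in CRL_LS.

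Uhmk1 was the 1 promoter of intermediate level in both tables besides Slamf8. Its 4 measured CpGs averaged 56.2, 52.4, 52.0 and 60.2% in MCW_HS, 48.5, 52.1 and 59.6% in MCW_LS, 50.6, 50.8, 43.4 and 56.5% in CRL_HS and 49.7, 46.1, 51.1 and 56.2% in CRL_LS. In the second table the mean over 7 CpGs was 24.7% ± 2.41 (SD, 12 rats). Single CpGs ranged from 27.3 to 62.6% in the first table and from 0 to 51.9% in the second. The levels were not compared at the same CpGs, so the part of coverage in this difference was not tested. The bin at this start, chr13:93162501-93163000, held 20 common sites at 43.8% ± 4.59 in the first table and 23 at 31.6% ± 4.48 in the second. The other promoters over 20% were Ccdc185, at 78.7% ± 2.35 in the second table, and 4 starts with RefSeq names only: LOC134481541 at 84.9% ± 2.66, LOC120096257 at 69.0% ± 4.48 (first table) and 81.0% ± 2.56 (second table), LOC134481566 at 66.7% ± 3.22 and LOC102547165 at 61.9% ± 4.21. Between 5 and 20% lay Cntn2, the gene of a neuronal adhesion molecule, at 10.6% ± 4.52, Mtarc1, of a mitochondrial reductase, at 5.30% ± 1.41, and 1 start of LOC134481577 at 10.9% ± 1.29 in the second table and 13.5% ± 3.43 in the first.

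**Figure D3:**
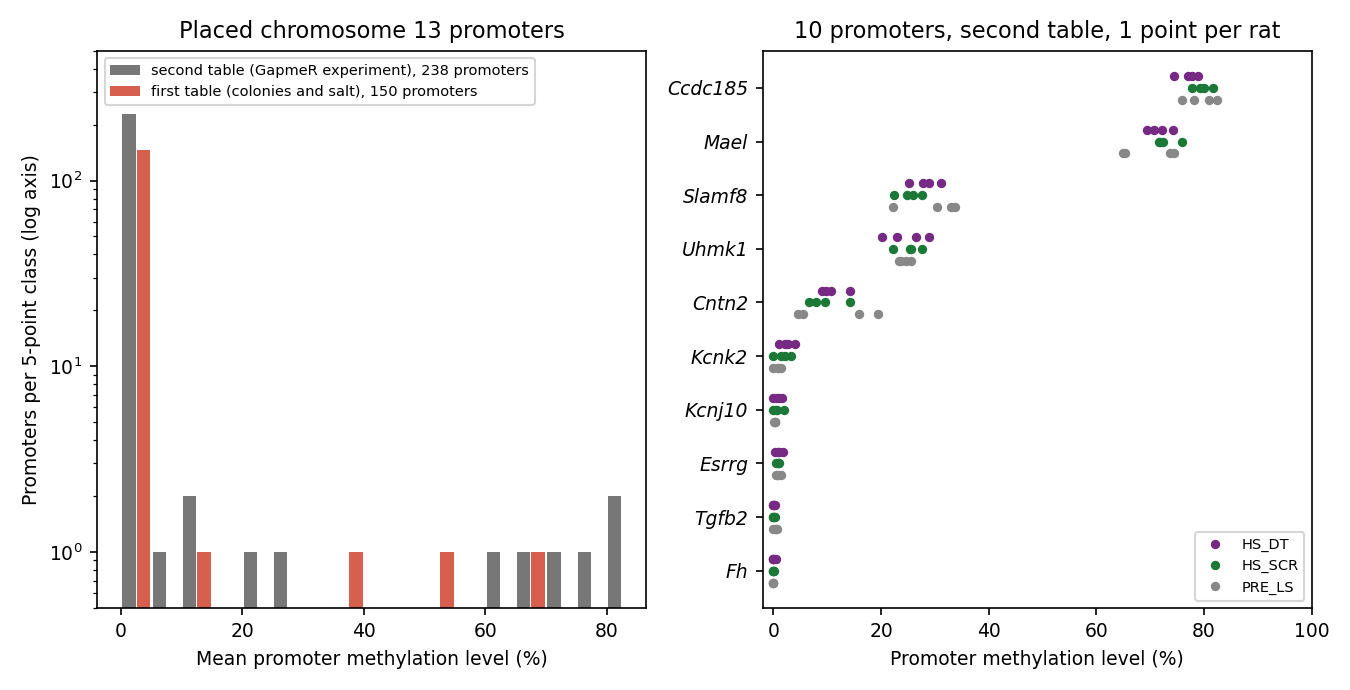
Left, number of placed chromosome 13 promoters (log axis) in 5-point classes of mean promoter level (%), for 238 promoters of the second table and 150 of the first; 227 and 146 of them lie under 5%. Right, level (%) of 10 promoters in the second table, 1 point per rat of HS_DT, HS_SCR and PRE_LS: the groups overlap in each row, with Ccdc185 and Mael above 60% and Kcnk2, Kcnj10, Esrrg, Tgfb2 and Fh near 0.

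Several other genes with roles in the kidney or its vessels had no placed promoter, and the interval between their placed neighbours is given in their stead, in rn5, on the assumption that gene order is the same as in GRCr8. The interval of Atp1b1, a subunit of the sodium pump, between Nme7 and Sft2d2 stood at 42.9% ± 1.44 (SD, 15 rats) in the first table and 40.2% ± 0.308 (SD, 12 rats) in the second.

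The interval of Ptgs2, the inducible cyclooxygenase, between Rgs2 and Odr4 spans 6742 kb and was methylated, at 69.1% ± 0.790 over 136 sites and 66.1% ± 0.393 over 415 sites. The interval of Nos1ap, an adaptor of neuronal nitric oxide synthase, stood at 21.5% and 27.0%, and that of Adora1, an adenosine receptor, at 17.6% and 34.4%. The interval of Hsd11b1, which regenerates active glucocorticoid, had 6 and 21 common sites, at 72.9% ± 4.15 and 58.5% ± 1.51. No bin of these 5 intervals was called in any comparison by the quasi-binomial test described below.

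Diet was compared first in each colony. The mean level of chromosome 13 was 28.76, 28.86, 29.20 and 29.11% in MCW_HS, against 28.68, 28.93 and 28.58% in MCW_LS. The MCW_HS rats were higher in 10 of 12 pairs of rats, and the groups overlap. The means were 28.98% ± 0.205 in MCW_HS (SD, n = 4) and 28.73% ± 0.182 in MCW_LS (SD, n = 3), a difference of 0.252 points (SE 0.150) with an adjusted p of 0.334 in a limma fit over the 20 autosomes. In CRL rats the levels were 28.85, 28.77, 28.99 and 28.86% in CRL_HS, against 28.62, 28.74, 28.77 and 28.98% in CRL_LS. The CRL_HS rats were higher in 13 of 16 pairs, with overlap, and the difference was 0.0920 points (SE 0.0878, adjusted p = 0.428).

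These small differences were not particular to chromosome 13: the high-salt mean was above the low-salt mean on all 20 autosomes in each colony. Over the autosomes they ranged from 0.0992 to 0.475 points for MCW_HS minus MCW_LS and from 0.0573 to 0.475 for CRL_HS minus CRL_LS, and 0 of 20 autosomes were called in either (limma). With both colonies in 1 fit, the high-salt minus low-salt difference on chromosome 13 was 0.166 points (SE 0.0832, adjusted p = 0.122). Relative to the other autosomes the differences were 0.0133 points for MCW_HS minus MCW_LS and -0.0751 for CRL_HS minus CRL_LS. When each bin counted once instead of each site, the difference over both colonies was 0.360 points (limma, adjusted p = 0.0107), so this call depends on how sites are weighted. It was not particular to chromosome 13 either. Among the bins tested, the median difference was 0.306 points on chromosome 13 and 0.334 over all chromosomes. Of these bins 56.0% were higher on chromosome 13 and 56.5% over all chromosomes. How many autosomes were called with this weighting is not given here. The animal numbers in the labels were grouped here into ranges, which may mark cohorts, though no label names one. By animal number range, MCW_HS minus MCW_LS was 0.00596 points among animals 1155 to 1184 (2 against 2 rats). Among animals 1245 to 1282 it was 0.573 (2 against 1).

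Between colonies the differences of the chromosome 13 means did not pass the test. CRL_LS ate 5L2F with 0.75% NaCl and MCW_LS AIN-76A with 0.4%, so colony and diet cannot be told apart in MCW_LS minus CRL_LS, in MCW minus CRL over both diets or in the difference of the salt effects. In the limma fit MCW_HS minus CRL_HS was 0.116 points (SE 0.112, adjusted p = 0.760) and MCW_LS minus CRL_LS was -0.0440 (SE 0.125, adjusted p = 0.889). Among animals 1245 to 1282, the 1 range with CRL rats, they were 0.287 (2 against 4 rats) and -0.194 (1 against 4). Over both diets MCW minus CRL was 0.0420 points (SE 0.0832, adjusted p = 0.743). Sites of intermediate level, between 20 and 80%, stood at 49.4% ± 0.563 in MCW_HS and 48.5% ± 0.30 in MCW_LS, and at 49.1% ± 0.402 in CRL_HS and 48.5% ± 0.376 in CRL_LS. On the other autosomes this class stood at 49.2% in MCW_HS and 48.3% in MCW_LS, and at 48.9% in CRL_HS and 48.1% in CRL_LS, so the same small differences were seen there. The MCW salt effect minus the CRL salt effect was 0.160 points (SE 0.167) in mean level, with an adjusted p of 0.999 in the limma fit of the interaction.

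In the GapmeR experiment the chromosome 13 means were 34.57, 34.53, 34.52 and 34.45% in HS_DT, 34.74, 34.57, 34.76 and 34.00% in HS_SCR and 34.59, 34.47, 34.54 and 34.62% in PRE_LS. Replicate 4 of HS_SCR was the lowest of the 12 rats, also on the other autosomes, where it stood at 28.6% and all others between 29.0 and 29.4%. HS_DT minus HS_SCR was 0.000516 points (SE 0.181, adjusted p = 0.998), HS_SCR minus PRE_LS -0.0352 (SE 0.182, adjusted p = 0.992) and HS_DT minus PRE_LS -0.0347 (SE 0.0411, adjusted p = 0.960). Without replicate 4 of HS_SCR, HS_DT minus HS_SCR was -0.174 points with an adjusted p of 0.0367 in the limma fit over the 20 autosomes. HS_SCR minus PRE_LS was then 0.139. The shift was not particular to chromosome 13. On the other autosomes HS_DT stood at 29.2, 29.2, 29.1 and 29.1%, below replicates 1 to 3 of HS_SCR at 29.4, 29.3 and 29.3%. How many autosomes were called in that fit is not given here. By animal number range, HS_DT minus HS_SCR was -0.140 among animals 781 to 785 (3 against 2 rats) and 0.143 among 858 to 871 (1 against 2), where HS_SCR minus PRE_LS was -0.175 (2 against 4). The comparisons share the HS_SCR and PRE_LS rats.

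**Figure D4:**
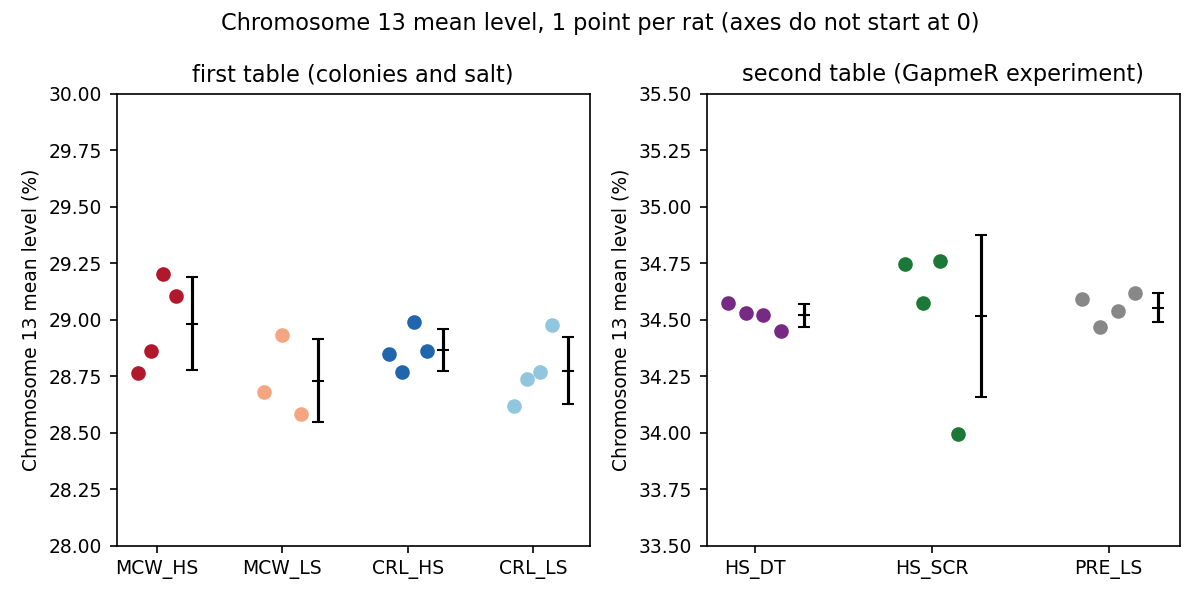
Mean methylation level (%) of chromosome 13 common sites, 1 point per rat, with the group mean and SD beside the points; the vertical axes do not start at 0. MCW_HS and MCW_LS overlap, as do CRL_HS and CRL_LS, and an HS_SCR rat of the second table lies at 34.0%, below all HS_DT and PRE_LS rats.

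No window and no bin of chromosome 13 was called in any of the 10 comparisons at an adjusted p below 0.05, windows by limma and bins by a quasi-binomial model on counts. Limma on log2 ratios of the bins also called none on chromosome 13. Over all chromosomes the share of bins called was 0% in each comparison but 1, MCW minus CRL over both diets, where it was 0.00355% (1 bin). Bins and sites entered these tests where their level pooled over the libraries compared lay between 5 and 95%, so unmethylated promoters are mostly outside them. Counts of bins at an unadjusted p below 0.05 stood near those of the whole genome, while those of the 24 windows were 0 to 3 and lay above or below the share of all windows. For MCW_HS minus MCW_LS, 60 of 1018 chromosome 13 bins (5.89%) passed, against 6.23% of all bins, and 2 of 24 windows (8.33%), against 6.52% of all. For CRL_HS minus CRL_LS it was 67 of 1012 bins (6.62%) against 5.92%, and 2 windows against 8.38%. For high minus low salt over both colonies it was 55 of 1015 bins (5.42%) against 6.84%, and 2 windows (8.33%) against 14.3%.

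For MCW_LS minus CRL_LS, 45 of 1014 bins (4.44%) passed against 5.62% of all, and 3 windows (12.5%) against 3.72%. For MCW_HS minus CRL_HS it was 54 of 1017 bins (5.31%) against 5.95%, and 2 windows against 6.15%. For MCW minus CRL over both diets it was 60 of 1015 bins (5.91%) against 6.02%, and 0 windows against 5.96%. For the difference of the salt effects it was 50 of 1015 bins (4.93%) against 5.34%, and 2 windows against 4.28%. In the second table, HS_DT minus HS_SCR had 134 of 3441 bins (3.89%) against 4.41%, and 1 window against 1.12%. HS_SCR minus PRE_LS had 184 of 3440 bins (5.35%) against 4.77%, and 0 windows against 0.929%. HS_DT minus PRE_LS had 150 of 3434 bins (4.37%) against 5.21%, and 2 windows against 4.83%. In every comparison the chromosome 13 share of bins thus lay close to the background.

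The signs of the salt differences were set side by side between the colonies. Of 1002 chromosome 13 bins tested in both, 51.9% had the same sign in MCW_HS minus MCW_LS and in CRL_HS minus CRL_LS, against 52.1% of 27692 bins over all chromosomes. In 6 bins of chromosome 13 both had an unadjusted p below 0.05, and 3 of these had the same sign, against 117 of 176 such bins over all chromosomes. Variation between rats was of similar size too: the median within-group SD of a chromosome 13 bin was 2.49 points (first table) and 2.52 (second table), against 2.25 and 2.43 on the other autosomes.

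The bins with the smallest p are described with their values, none of them called. For MCW_HS minus MCW_LS the first was chr13:109987001-109987500, 70.5 kb from the placed start of LOC134481541. It stood at 42.5, 44.3, 39.0 and 30.7% in MCW_HS, against 20.97, 16.9 and 13.9% in MCW_LS. These groups do not overlap (adjusted p = 0.576). The same bin stood at 36.0% ± 6.92 in HS_DT, 29.0% ± 9.38 in HS_SCR and 32.2% ± 4.88 in PRE_LS. The next was chr13:110710001-110710500, 47.6 kb from the placed Esrrg start, at 20, 18.02, 17.96 and 17.5% in MCW_HS, against 13.1, 7.62 and 8.16% in MCW_LS (adjusted p = 0.576). A bin 0.949 kb from the promoter of Hlx, a homeobox gene of gut and liver development, chr13:107322001-107322500, stood at 18.5, 13.1, 21.5 and 25.7% in MCW_HS, against 9.62, 7.44 and 10.7% in MCW_LS. These groups do not overlap either, but the adjusted p was 0.716, and the CRL groups ranged from 7.55 to 26.2% in CRL_HS and from 6.52 to 26.6% in CRL_LS.

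For CRL_HS minus CRL_LS the leading pair of bins lay on both sides of Fcgr2a, an Fc receptor of leukocytes, 5.726 and 35.502 kb from its placed start. Chr13:95672001-95672500 stood at 71.4, 75.5, 69.8 and 70.4% in CRL_HS, against 56.3, 53.7, 59.7 and 64.0% in CRL_LS, without overlap (adjusted p = 0.626). The bin chr13:95714001-95714500 had the same level in every rat of the table but replicate 2 of CRL_LS (53.8 against 53.7%), so the reads of the 2 places may not be separable and they count as 1 observation. A bin 37.6 kb from the Esrrg start, chr13:110720001-110720500, stood at 71.9, 65.6, 57.4 and 57.9% in CRL_HS, against 49.0, 44.3, 44.7 and 42.9% in CRL_LS. It was also the leading bin of MCW_LS minus CRL_LS, with 63.0, 60.3 and 59.5% in MCW_LS, and the 2 comparisons share the CRL_LS rats. Lower in CRL_HS was chr13:104214001-104214500, 3.62 kb from Tmem63a, the gene of a mechanosensitive ion channel, at 4.46, 5.04, 4.06 and 5.12%, against 6.62, 7.61, 8.17 and 10.1% in CRL_LS.

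Over both colonies the leading bins for high minus low salt included chr13:40186501-40187000, 15.6 kb from Gli2, a transcription factor of hedgehog signalling. It averaged 77.9% ± 4.42 in MCW_HS and 65.8% ± 5.73 in MCW_LS, and 74.1% ± 5.62 in CRL_HS and 68.8% ± 2.55 in CRL_LS (adjusted p = 0.443). Near Rgs16, at 31.0 kb, chr13:76113501-76114000 averaged 52.4% ± 5.38 in MCW_HS and 34.7% ± 10.7 in MCW_LS, and 47.9% ± 13.01 in CRL_HS and 34.4% ± 8.63 in CRL_LS (adjusted p = 0.449). Between colonies, chr13:56962001-56962500 averaged 2.62% ± 0.992 in MCW_HS and 8.997% ± 4.04 in CRL_HS, and 2.00% ± 2.33 in MCW_LS and 6.40% ± 3.77 in CRL_LS (adjusted p over both diets 0.363).

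In the GapmeR experiment every bin had a large adjusted p. For HS_DT minus HS_SCR, chr13:80119501-80120000 stood at 50.9, 46.9, 42.1 and 50.3% in HS_DT, against 33.7, 29.7, 29.9 and 32.5% in HS_SCR, with PRE_LS between 31.6 and 43.1%. The groups do not overlap, and the adjusted p over 96356 bins was 1.000. For HS_SCR minus PRE_LS, chr13:76141501-76142000 lay 3.02 kb from the unmethylated Rgs16 promoter. It stood at 43.7, 42.9, 28.7 and 42.1% in HS_SCR, against 57.2, 59.4, 49.0 and 58.2% in PRE_LS, with 41.9, 48.9, 27.8 and 53.8% in HS_DT. For HS_DT minus PRE_LS, chr13:55976501-55977000 lay 6.20 kb from Btg2, an antiproliferative gene, and stood at 59.0, 57.5, 61.1 and 59.1% in HS_DT, against 45.7, 48.1, 48.6 and 55.6% in PRE_LS (adjusted p = 0.842).

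Other bins are named for their level or spread. The bin with the most common sites in both tables, chr13:114643501-114644000, overlaps the promoter of Ppp2r5a, a regulatory subunit of protein phosphatase 2A, and stood at 0.182% ± 0.172 and 0.0936% ± 0.0303 over 74 sites. Of 358 bins with 10 or more common sites in the first table, 314 lay under 20%, 17 over 80% and 27 between. Of 858 in the second, 611 lay under 20%, 94 over 80% and 153 between. Among bins with 5 or more common sites of the first table, the widest spread over rats was at chr13:54365001-54365500, 24.0 kb from Cntn2: 58.3, 55.8, 59.6 and 56.7% in MCW_HS, 76.4, 62.8 and 21.4% in MCW_LS, 22.2, 50, 63.8 and 52.8% in CRL_HS and 13.6, 43.9, 42.9 and 76.2% in CRL_LS. The spread lies within groups, on 72 to 285 reads per rat, and over the 12 rats of the second table the bin ranged from 34.5 to 55.9%.

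Calls on chromosome 13 were made at single sites only, 5 in all among bins, windows and sites. For MCW_HS minus MCW_LS 3 of 5637 chromosome 13 sites were called, against 0.089% of all sites tested. For MCW_LS minus CRL_LS 1 of 5573 was called (0.0172% of all), for MCW_HS minus CRL_HS 1 of 5654 (0.0648%) and for the difference of the salt effects 4 of 5614 (0.0907%). No chromosome 13 site was called for CRL_HS minus CRL_LS (0.0147% of all), MCW minus CRL over both diets (0.0469%) or high minus low salt over both colonies (0%). At an unadjusted p below 0.05 these had 422 of 5591 chromosome 13 sites (7.55%, against 7.41% of all), 309 of 5614 (5.50%, against 6.32%) and 407 of 5614 (7.25%, against 7.68%). None was called for HS_DT minus HS_SCR, HS_SCR minus PRE_LS or HS_DT minus PRE_LS (0% of all in each). Their counts at an unadjusted p below 0.05 were 848 of 17986 (4.71%, against 4.92%), 947 of 17922 (5.28%, against 5.44%) and 914 of 17884 (5.11%, against 5.61%). Limma on log2 ratios called no chromosome 13 site in any comparison.

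The 5 called sites lie in the first 40 Mb, 1998 to 8980 kb from any placed promoter. Site 3524902 (site B) was called in 4 comparisons. It stood at 3.00, 0, 0 and 0% in MCW_HS, 6.90, 40.6 and 17.9% in MCW_LS, 12.8, 13.3, 29.7 and 0.971% in CRL_HS and 8.08, 3.85, 7.14 and 3.12% in CRL_LS. The 0 values rest on 110, 170 and 163 reads, which allow levels of up to 2.73, 1.76 and 1.84%. MCW_HS minus MCW_LS was -21.1 points with an adjusted p of 0.00508 (quasi-binomial, dispersion moderated by limma), and the MCW salt effect minus the CRL salt effect was -29.7 points with an adjusted p of 0.00139. MCW_HS was lower than MCW_LS in every pair of rats, but MCW_LS itself ranged from 6.90 to 40.6%.

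Site 2613739 (site A) stood at 7.69, 6.06, 7.32 and 11.5% in MCW_HS, 2.63, 45.2 and 32.9% in MCW_LS, 27.8, 26.4, 50.4 and 2.44% in CRL_HS and 3.03, 9.89, 13.7 and 10.7% in CRL_LS. Site 5409596 (site C) stood at 1.504, 6.08, 0 and 4.05% in MCW_HS, 2.99, 30.2 and 15.5% in MCW_LS, 5.04, 6.87, 23.2 and 0% in CRL_HS and 3.17, 3.08, 6.28 and 0% in CRL_LS. The 0 values at site C rest on 167, 152 and 66 reads, which allow up to 1.80, 1.97 and 4.54%. At both sites replicate 1 of MCW_LS and replicate 4 of CRL_HS lay within or below the range of MCW_HS, so MCW_HS and MCW_LS overlap. MCW_HS minus MCW_LS was -18.8 points at site A (adjusted p = 0.0489) and -13.3 at site C (adjusted p = 0.0452), both quasi-binomial. At site A the MCW salt effect minus the CRL salt effect was -36.2 points (adjusted p = 0.0104).

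Site 36657025 (site D) stood at 75.0, 7.69, 54.5 and 78.6% in MCW_HS, 74.2, 94.3 and 89.7% in MCW_LS, 84.5, 93.8, 93.1 and 75.0% in CRL_HS and 77.1, 80, 83.7 and 55.2% in CRL_LS. Site 37384010 (site E) stood at 24.6, 13.6, 19.6 and 19.9% in MCW_HS, 16.7, 61.8 and 40.9% in MCW_LS, 25.7, 25.3, 54.3 and 22.4% in CRL_HS and 29.3, 22.8, 23.0 and 22.6% in CRL_LS. The MCW salt effect minus the CRL salt effect was -44.7 points at site D (adjusted p = 0.0149) and -27.9 at site E (adjusted p = 0.0414). At site D the 7.69% of replicate 2 of MCW_HS rests on 13 reads, 1 of them methylated.

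The 2 libraries with the most reads at these sites, relative to their own median, also had high levels there. Replicate 2 of MCW_LS was the highest or, at site A, the second highest of the 15 libraries at every site, and replicate 3 of CRL_HS was highest at site A, second at sites B, C and E and behind replicate 2 of CRL_HS as well at site D. Their reads at the sites were 4.35 to 15.3 times (MCW_LS replicate 2) and 5.46 to 16.5 times (CRL_HS replicate 3) the library's own median at chromosome 13 sites. At site D they had 992 and 594 reads, against 13 to 165 in the other 13 libraries. Replicate 3 of MCW_LS was also high at sites A, B, C and E, at 32.9, 17.9, 15.5 and 40.9%. Its reads there were 2.55, 2.52, 3.55 and 6.71 times its median, and the medians over the libraries were 2.45, 3.27, 4.16 and 7.13. At site D it stood at 89.7% with 5.32 times, against 1.25. The part of read depth in the calls was not tested. Without replicate 2 of MCW_LS no chromosome 13 site was called for MCW_HS minus MCW_LS, MCW_LS minus CRL_LS or the difference of the salt effects. Without replicate 3 of CRL_HS none was called for MCW_HS minus CRL_HS or the difference of the salt effects, and without any 1 of the CRL_LS rats none for MCW_LS minus CRL_LS. Counts also moved up: without replicate 3 of MCW_LS there were 21 called sites for MCW_LS minus CRL_LS and 6 for MCW_HS minus MCW_LS, and without replicate 1 of MCW_LS there were 4 and 5. MCW_HS minus MCW_LS had 1 called site without replicate 2, 3 or 4 of MCW_HS. MCW_HS minus CRL_HS had 2 without replicate 2 of MCW_HS and 3 without replicate 1 or 4 of CRL_HS. The difference of the salt effects had 7 without replicate 1 of CRL_HS and 2 without replicate 3 of MCW_HS or replicate 4 of CRL_LS. The shares called over all chromosomes in these fits are not given here, so no such count is read as particular to chromosome 13.

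**Figure D5:**
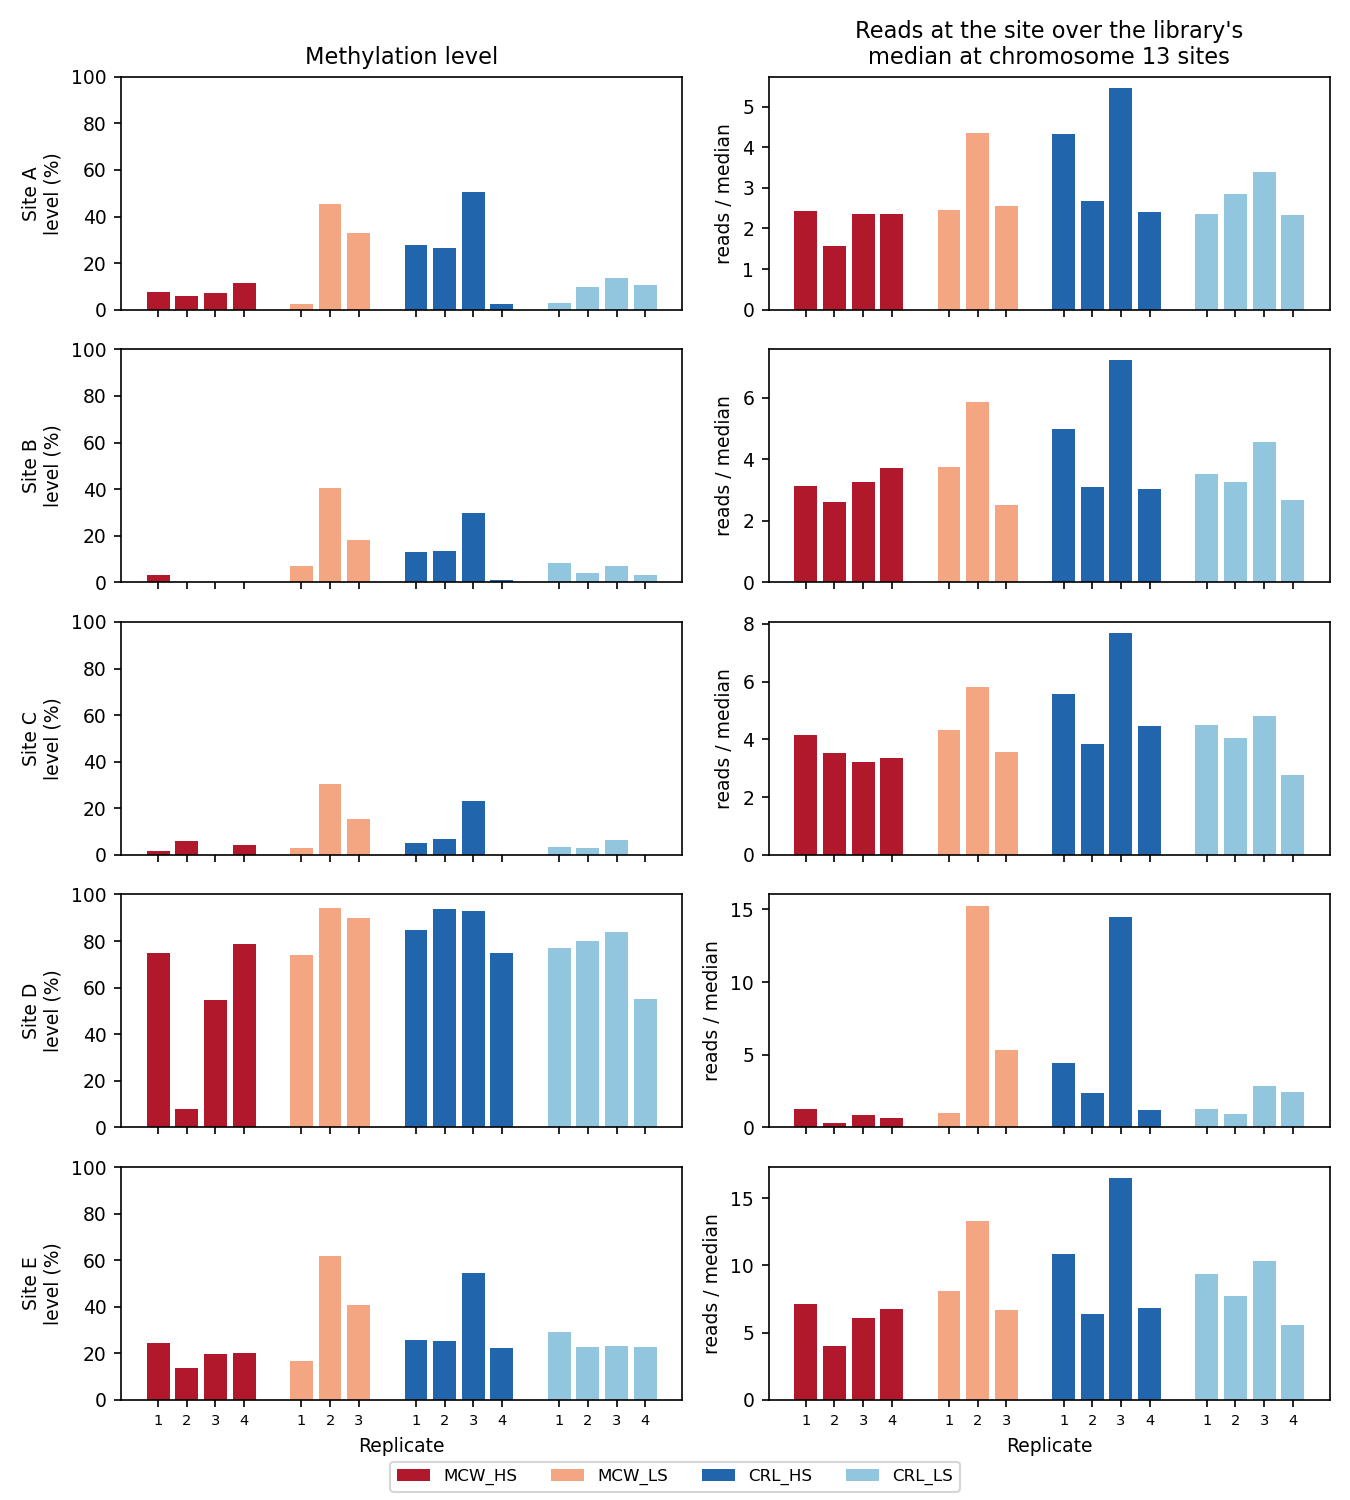
Left, methylation level (%) at the 5 called chromosome 13 sites, A to E in order of position, in each library of MCW_HS, MCW_LS, CRL_HS and CRL_LS. Right, reads at the site over the library's median at chromosome 13 common sites: replicate 2 of MCW_LS and replicate 3 of CRL_HS stand highest in every row, at 4.35 to 15.3 and 5.46 to 16.5 times.

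All 5 sites were also common sites of the second table, where none was called. Site E averaged 51.5% ± 5.89 in HS_DT, 40.8% ± 6.35 in HS_SCR and 33.9% ± 2.57 in PRE_LS. Site A averaged 25.6% ± 6.44 in HS_DT, 12.6% ± 12.9 in HS_SCR and 12.9% ± 7.12 in PRE_LS. Sites B and C followed the same order of HS_DT over HS_SCR and PRE_LS, with 14.5% ± 6.78 and 12.1% ± 10.2 in HS_DT, 8.20% ± 6.36 and 4.25% ± 2.31 in HS_SCR, and 8.03% ± 3.19 and 4.90% ± 1.77 in PRE_LS. Over all rats sites A, B and C ranged from 2.47 to 31.2%, 0 to 23.5% and 2.04 to 26.7%. Their reads ranged from 26 to 130, 105 to 250 and 98 to 270. In the first table the same libraries were high at these sites, so the sites are not independent observations. The part of read depth in this order was not tested. Site D averaged 69.6% ± 9.81 in HS_DT, 72.1% ± 6.75 in HS_SCR and 62.7% ± 2.34 in PRE_LS.

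Depth and quality values of the whole series bear on these results as follows. The libraries held 35040331 to 95102303 CpG read counts (first table) and 174400859 to 257658964 (second table), of which chromosome 13 took 1.94 to 2.34%. Its common sites had a median depth of 24 to 65 reads in libraries of the first table and of 62 to 95 in those of the second, and the deepest library of the first was replicate 2 of MCW_LS. Counts equal to those of another position in every library of the table were found at 1590 and 3826 chromosome 13 common sites, whose reads may not be separable, and without them the excess over the other autosomes was 6.51 and 5.52 points.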

How the data were processed

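DNA of the renal outer medulla of 27 rats was measured by RRBS. The deposited tables hold, per the file headers, a methylated (C) and an unmethylated (T) count per CpG position and library, with no normalization. Trim Galore 0.2.5 and build rn5 are named, per the submitters' processing notes. For the aligner and the caller, names were not given in the sources used here. In both tables no position lies 1 bp from the next, so strands were treated as merged.

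Groups and replicate numbers came from the labels. Columns of 2 libraries carry the letters RP (replicate 2 of MCW_LS and replicate 3 of CRL_LS); for MCW_LS a title puts them on replicate 1, and the column name was followed. Sites needed 10 reads in every library, bins of 500 bp 3 such sites and windows of 5 Mb 50. The level of a chromosome, window or promoter is the mean over its sites, and that of a bin the summed C over summed C and T. Mean levels were tested with limma 3.58.1 (R 4.3.3) over 20 autosomes or all windows. Bins and sites with a pooled level of 5 to 95% were tested with a quasi-binomial model whose dispersion limma moderated, with p-values adjusted by Benjamini-Hochberg over all chromosomes, and again with limma on log2 ratios (pseudocount 0.5). Each table was tested alone. The code was tested on simulated data. Python 3.11.15, numpy 2.4.6, scipy 1.17.1, pandas 2.3.3 and matplotlib 3.10.9 were used. Limits at 0 counts (3 counts over the reads) cover counting error only, and PCR copies are not marked. P-values of limma measure the spread between rats, with variances moderated over the autosomes, windows, bins or sites of a fit. Those of the quasi-binomial model rest on read counts and on a dispersion between rats moderated over all bins or sites. That dispersion was never set below counting error. These p-values can therefore be small at a site where the rats of a group spread widely.

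Named bins were up to 4 per direction of a comparison with the smallest p, the 5 with most sites, up to 6 with 10 or more sites at 40 to 60%, and, with 5 or more sites, the 3 with the largest SD, per table; named sites were all those called, and named windows the 3 lowest and 3 highest. The bins shown from these were picked after their values were seen. Members and gene lists were chosen with earlier results of these data known. Alternatives tried were 20 reads, other bin and window sizes, weighting by reads, a replicate block, animal number ranges, no filter on level, no RP libraries and leaving out each rat. The 26 pairs of rats with the same number had correlations of their deviations from -0.0400 to 0.0236, none over 0.1. No pairing was seen in these correlations, but they cannot exclude one, so results with a replicate block are given below. Some genes of the chromosome are not reported here.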

Additional observations from a re-analysis of the deposited data

Results flagged for a closer look

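The first 11 results stood out because the highest or lowest of 4 rats lay far from the other 3. Of 167 groups of 4 examined, 11 did so (6.59%), and chance gives about 1 in 20 for groups not picked by their values. Several of the flagged bins and the flagged sites were picked by their p or a call, so this rate may not hold for them. In the bin chr13:114353501-114354000, replicate 3 of CRL_HS stood at 88.4% and the other CRL_HS rats at 81.5 to 81.8%. In chr13:82030501-82031000, replicate 4 of MCW_HS stood at 26.2% and the others at 36.4 to 38.4%. In chr13:54511001-54511500, replicate 2 of CRL_LS stood at 38.5% and the others at 52.8 to 55.6%. In chr13:116117001-116117500, replicate 4 of MCW_HS stood at 36.6% and the others at 27.0 to 27.8%. Near Esrrg, in chr13:110710001-110710500, replicate 3 of CRL_HS stood at 6.93% and the others at 13.8 to 15%.

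In the GapmeR experiment, chr13:88450501-88451000 stood at 84.3% in replicate 1 of HS_SCR and 71.8 to 73.5% in the others. Near Rgs16, chr13:76141501-76142000 stood at 28.7% in replicate 3 of HS_SCR and 42.1 to 43.7% in the others. In chr13:93932001-93932500, replicate 4 of PRE_LS stood at 83.2% and the others at 76.2 to 77.2%. At site 3524902, replicate 1 of MCW_HS stood at 3.00% and the others at 0. At site 37384010, replicate 3 of CRL_HS stood at 54.3% and the others at 22.4 to 25.7%, and replicate 1 of CRL_LS stood at 29.3% and the others at 22.6 to 23.0%.

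At 4 sites the salt difference differed between the colonies by the quasi-binomial test of the difference itself. The MCW salt effect minus the CRL salt effect was -36.2 points at site 2613739, -29.7 at 3524902, -44.7 at 36657025 and -27.9 at 37384010. Without replicate 2 of MCW_LS, or without replicate 3 of CRL_HS, no chromosome 13 site was called for this difference.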

How the results depend on the processing

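The excess of chromosome 13 over the other autosomes stayed above 0 in every rat under every alternative run. In the first and second table it was 6.87 and 5.51 points with 20 reads, 11.1 and 8.55 weighted by reads, 5.64 and 4.10 over bins, 2.59 and 2.05 with the other autosomes reweighted by sites per bin, 6.51 and 5.52 without positions of equal counts, and 0.667 and 1.32 without the first 8 windows, which was chosen after seeing the data. The last of these left windows out of chromosome 13 only, with the other autosomes whole. Weighted by reads, chromosome 13 ranked 18 and 19 of the 20 autosomes from the lowest.

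Mean differences of chromosome 13 are small, and their sign turned in several alternatives; the cause was not tested. Weighted by reads they were -0.0275 for MCW_HS minus MCW_LS, 0.776 for MCW_LS minus CRL_LS, -0.176 for the difference of the salt effects, 0.623 for HS_SCR minus PRE_LS and -0.901 for HS_DT minus HS_SCR. Minus the other autosomes they were -0.0751 for CRL_HS minus CRL_LS and -0.0343 for high minus low salt over both colonies. Over bins, and not set against the other autosomes, high minus low salt over both colonies was 0.360 (adjusted p = 0.0107, limma). The median difference of the bins tested was then 0.306 points on chromosome 13 and 0.334 over all chromosomes. With 20 reads they were -0.0189 for MCW_HS minus CRL_HS, -0.0215 for MCW minus CRL over both diets and -0.00695 for HS_DT minus HS_SCR. With animal number range as a block HS_DT minus HS_SCR was -0.0392. Leaving out each rat gave -0.145 to 0.0308 for MCW_LS minus CRL_LS, -0.000438 to 0.0818 for MCW minus CRL, -0.116 to 0.139 for HS_SCR minus PRE_LS and -0.174 to 0.0812 for HS_DT minus HS_SCR.

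With the replicate block, MCW_LS minus CRL_LS was 0.0232 points, and 0 sites were called for MCW_HS minus MCW_LS, MCW_LS minus CRL_LS and MCW_HS minus CRL_HS, and 3 for the difference of the salt effects, without sites 36657025 and 37384010. No other call changed under this pairing. Called sites in these 4 comparisons were 3, 1, 1 and 4 as reported. They were 0 in each with no filter on level and with limma on log2 ratios. With 20 reads they were 1 for MCW_HS minus MCW_LS and 2 each for MCW_LS minus CRL_LS and the difference of the salt effects. By animal number range they were 1, 0 and 2 in the first 3 comparisons. Without the RP libraries they were 0 for MCW_HS minus MCW_LS, MCW_LS minus CRL_LS and the difference of the salt effects, which was also 0 without replicate 2 of MCW_LS and replicate 3 of CRL_HS together, chosen after seeing the data. Leaving out each rat gave 0 to 6, 0 to 21, 0 to 3 and 0 to 7, with 0 to 3 for CRL_HS minus CRL_LS and 0 to 1 for MCW minus CRL. For these alternatives the shares called over all chromosomes are not given here, so the counts are not read as particular to chromosome 13. No bin or window of chromosome 13 was called in any alternative run (187 and 157 results). Typical sites of the first table had 24 to 65 reads, and which differences at single sites could be called at this depth was not tested.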
